A study of Mus musculus with 9 samples.

Results

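Within bile duct organoids exposed to R-spondin 1 (Rspo1), cells that had switched on an Axin2 reporter were compared with cells from the same cultures that had not. The comparison holds 6 of the 9 RNA-seq libraries of the series, 3 from reporter-positive and 3 from reporter-negative cells, chosen by their labels alone. The organoids came from the bile duct of a single male mouse of mixed background that carried Axin2CreERT2+/- and R26-LSL-tdTom+/-, so all 9 libraries share this genotype: 1 Axin2 allele drives a tamoxifen-dependent Cre recombinase, and recombination in a cell turns on the red fluorescent protein tdTom for good. An expansion phase of 2 to 4 days came before 11 days of differentiation. In the last 24 h every culture received 3 uM dexamethasone and 500 nM 4-hydroxytamoxifen (4-OHT), with 100 ng/ml Rspo1 in the Rspo1 cultures and without it in the untreated ones. Cells were released with TriplE and sorted by tdTom fluorescence. The groups were Rspo1 reporter-positive (Rspo1_Axin2pos), Rspo1 reporter-negative (Rspo1_Axin2neg) and untreated reporter-negative (Untreated_Axin2neg), each with 1 library from passages 5, 6 and 10. No untreated reporter-positive group was analysed here, and the replicates are passages of organoids from 1 animal. With passage as a term of the fit, p-values measure how steady the group differences were across passages, and not the spread between animals.

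R-spondins raise the response of a cell to Wnt ligands: through LGR receptors they take the ubiquitin ligases Znrf3 and Rnf43 off the cell surface, which leaves more Frizzled receptor there and more beta-catenin to act with TCF factors on target genes. Axin2, a scaffold of the beta-catenin destruction complex, is itself such a target and feeds back on the pathway. In the liver, Wnt signalling is known for its part in hepatocyte zonation and in the growth of duct organoids. The comparison asks how cells sorted as tdTom-positive after the exposure differ from tdTom-negative neighbours in the same medium.

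Total counts ran from 23423979 to 37351448 per library over all 9. After a filter on low counts, 17011 genes were tested with edgeR's quasi-likelihood test with passage as a block. Values for single libraries are CPM (library-size-scaled counts, with TMM factors), in the order passage 5, 6 and 10, and fold changes are log2 values of reporter-positive over reporter-negative cells with their standard error. The reporter-negative Rspo1 libraries stood apart in a property of the transcripts: in the fifth of genes with the lowest GC content (up to 44.7%), the median deviation from the mean of all 9 libraries was -0.31, -0.36 and -0.58 (log2), against 0.25, 0.12 and 0.27 in reporter-positive and 0.24, 0.23 and 0.19 in untreated libraries. The rank correlation over genes of the fold change with GC content was -0.51 and with transcript length 0.30, as a description. Each result was therefore also fitted with an offset that removes a smooth trend on GC content and length from each library. These correlations were then -0.02 and 0.00, which follows from how the offset is built. The offset also takes out any real difference between the cells that runs along GC content or length. Passage 6 stood apart in another way: 3 genes that overlap ribosomal RNA sequence (Gm42418, AY036118 and CT010467.1) took 20.9% of the counts of its reporter-positive and 16.9% of its reporter-negative library, against 0.499% to 10.1% in the other 4 Rspo1 libraries. Within those passages the sorted cells differed: the share was 10.1% in the reporter-positive and 1.79% in the reporter-negative library at passage 10. At passage 5 it was 0.499% and 2.38%.

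**Figure D1:**
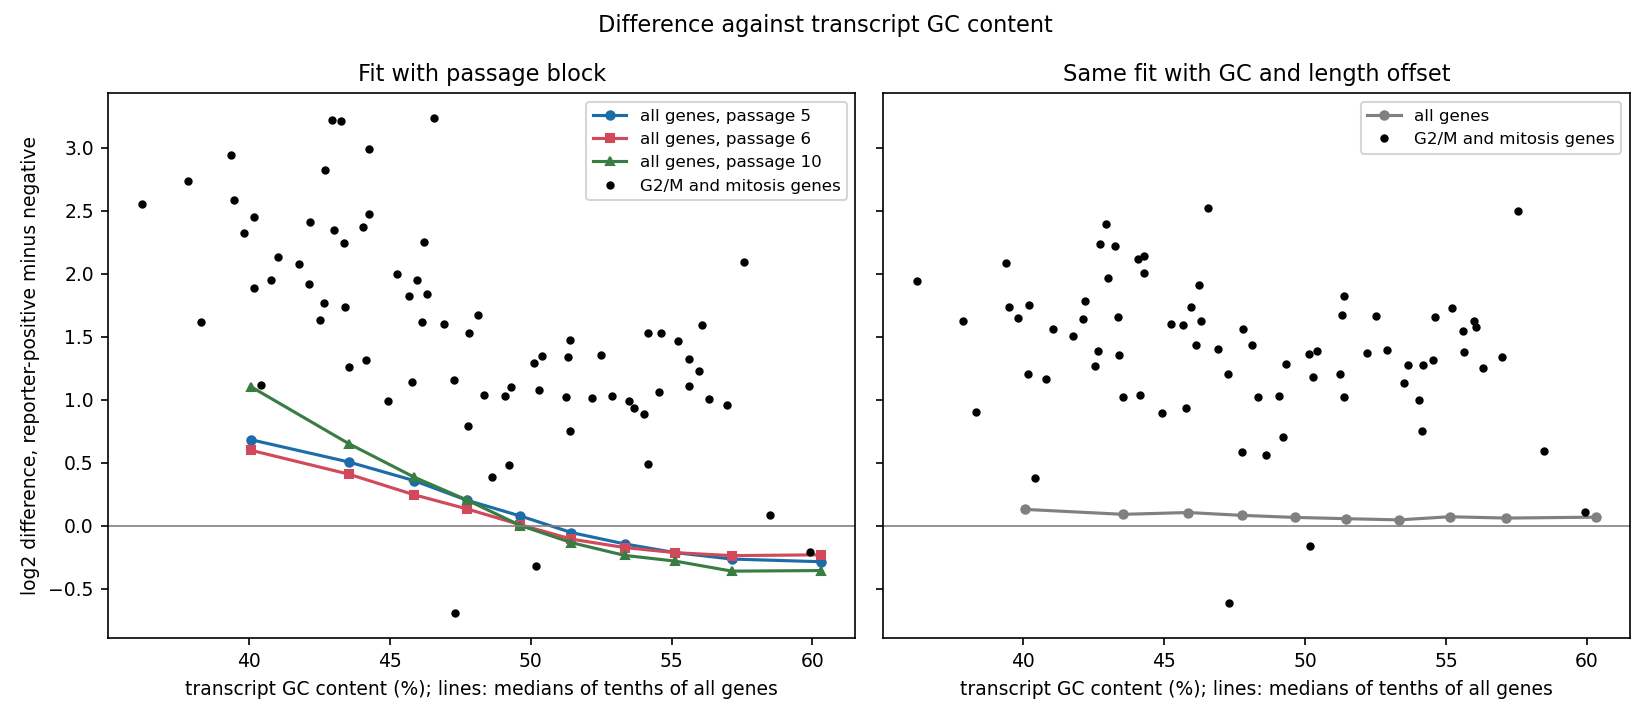
Log2 difference between reporter-positive and reporter-negative cells (y axis) against transcript GC content in percent (x axis). Lines are medians of all genes in bins of GC content that hold equal numbers of genes. They are drawn by passage on the left and for the fit with the GC and length offset on the right. Black points are the 75 G2/M and mitosis genes. The medians fall with GC content at every passage and are nearly level with the offset, while most black points lie above the lines in both panels.

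In the fit with passage as a block, 3660 genes (21.5% of those tested) were higher and 2964 (17.4%) lower in reporter-positive cells at an adjusted p under 0.05. With the offset the calls were 2395 higher and 1359 lower. Genes called in the same direction in both fits numbered 1753 higher (10.3%) and 839 lower (4.93%), and 17 genes were called in opposite directions. The text writes that a gene rose or fell only where both fits called it. These shares are the background against which the counts of each gene group are to be read. Median fold changes over all genes tested were 0.03 and, with the offset, 0.07. Leaving out passage 5 reduced the genes called in both fits from 2592 to 150, and without passage 6 they numbered 3849. Without the passage block they numbered 945.

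Axin2 itself (chr11:108920349-108950783, plus strand, GRCm38), the gene that drives the reporter, did not pass the test between the sorted cells when all passages were used. Its CPM was 44.4, 97.4 and 124 in reporter-negative and 75.7, 88.7 and 155 in reporter-positive cells, against 1.32, 1.74 and 5.96 in untreated cells. Reporter-positive cells were higher at passages 5 and 10 and slightly lower at passage 6, and the groups overlapped. The fold change was 0.31 ± 0.22 (adjusted p = 0.28) and 0.47 ± 0.20 with the offset (adjusted p = 0.12). Passage 6 decided this call: without it the fold change was 0.52 (adjusted p = 0.02), and without its reporter-negative library alone 0.59 (adjusted p = 0.039). Without passage 5 the fold change was 0.067 (adjusted p = 0.89), and adjusted p ran from 0.02 to 0.89 over the alternatives. In both sorted groups the level stood above every untreated library.

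Of the 32 genes on a list of Wnt targets and feedback genes, 22 were tested: 5 rose, 2 fell and the other 15 were not called in both fits. Over all genes tested, 10.3% rose and 4.93% fell. The list's median was 0.17 and 0.23 with the offset. Without passage 5, 0 rose and 1 fell; without passage 10, 1 rose and 1 fell. Among the regulators at the receptor, Znrf3, the ligase that clears Frizzled (chr11:5276324-5444847, minus strand), had a CPM of 19.1, 31.6 and 22.1 in reporter-negative and 45.1, 44.8 and 50.8 in reporter-positive cells. All 3 positive libraries lay above all 3 negative ones, with a fold change of 0.99 ± 0.16 (adjusted p = 0.001; 0.81 ± 0.14 with the offset, adjusted p = 0.0041). Its partner Rnf43 was at 151, 202 and 235 in reporter-negative and 179, 171 and 227 in reporter-positive cells (-0.01 ± 0.15, adjusted p = 0.96), with overlapping groups. Lgr5, an R-spondin receptor, was at 3.03, 5.76 and 0.974 in reporter-negative and 5.64, 10.4 and 1.62 in reporter-positive cells. It was higher in the positive library at every passage, but the fold change of 0.83 ± 0.36 did not pass (adjusted p = 0.094). It passed without passage 6 (adjusted p = 0.028), with the 6 Rspo1 libraries alone (0.0030) and without the low-count filter (0.0058), and adjusted p reached 0.64 over the other alternatives. The receptor Lgr4 passed without the offset (0.55 ± 0.16, adjusted p = 0.02) and not with it (0.18 ± 0.15, adjusted p = 0.40).

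Among the transcription factors, Myc was at 84.2, 85.4 and 151 in reporter-negative and 127, 117 and 226 in reporter-positive cells. The positive library was the higher one at each passage although the groups overlapped, and the fold change was 0.55 ± 0.11 (adjusted p = 0.0029; 1.04 ± 0.10 with the offset). Tcf7l2, a TCF factor, rose from 5.27, 5.76 and 5.97 to 11.9, 8.97 and 9.99 CPM (0.86 ± 0.17, adjusted p = 0.0026). Prox1, a homeobox factor, rose by 1.0 ± 0.22 (adjusted p = 0.0059) and Sox4 by 0.54 ± 0.14 (adjusted p = 0.011). Of the annotated exon bases of Sox4, 54.6% overlap an antisense gene. Mean CPM in untreated, reporter-negative and reporter-positive cells was 11.3, 5.67 and 10.3 for Tcf7l2, and 7.38, 3.23 and 6.24 for Prox1. In the same order it was 132, 82.6 and 119 for Sox4, 113, 107 and 157 for Myc and 25.8, 24.3 and 46.9 for Znrf3. The reporter-positive mean lay below the untreated one for Tcf7l2, Prox1 and Sox4 and above it for Myc and Znrf3. Tcf7 was called only with the offset (0.48 ± 0.20 without and 0.85 ± 0.19 with it). The targets Sp5 (0.17 ± 0.20), Ascl2 (-0.26 ± 0.20) and the cyclin Ccnd1 (-0.11 ± 0.15) did not pass, with adjusted p between 0.32 and 0.60.

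The list's members that fell were Bambi, a decoy receptor of the TGF-beta family, and Ephb2, a receptor tyrosine kinase. Bambi had a CPM of 4.66, 5.18 and 5.93 in reporter-negative and 3.08, 2.29 and 2.85 in reporter-positive cells, with no overlap (-0.93 ± 0.19, adjusted p = 0.0035; -1.46 ± 0.17 with the offset). Ephb2 was at 90.1, 95.3 and 78.8 CPM in negative and 81.9, 68.5 and 52.2 in positive libraries (-0.40 ± 0.12, adjusted p = 0.021; -0.73 with the offset). The groups overlapped at the passage 5 positive library. Cd44, an adhesion receptor often used as a Wnt target, passed only without the offset: its fold change was 0.61 ± 0.13 (adjusted p = 0.0049) and 0.07 ± 0.11 with it (adjusted p = 0.66). Without passage 5 and without the offset, the adjusted p of Znrf3 and Bambi stayed under 0.05, and those of Myc, Tcf7l2, Prox1, Sox4 and Ephb2 did not.

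**Figure D2:**
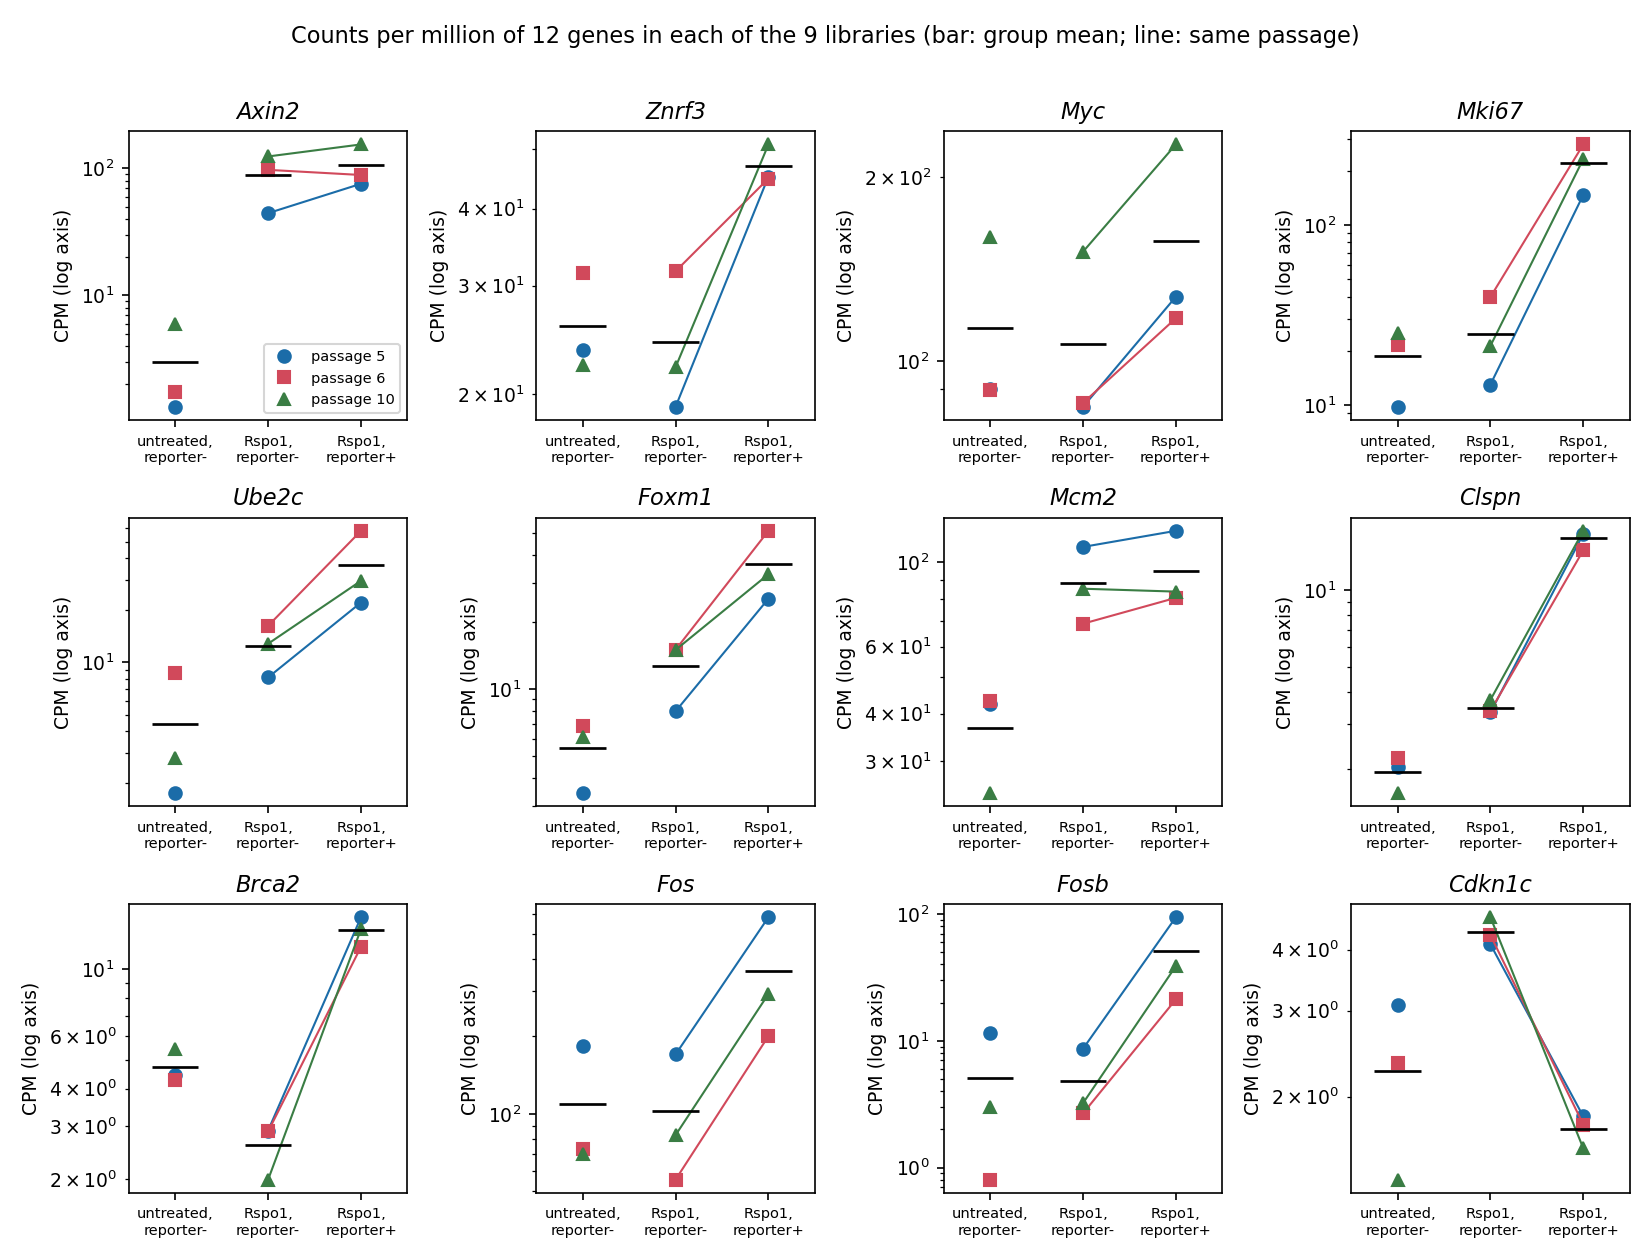
CPM (log axis) of 12 genes in the 3 groups (x axis), with 1 point per library, coloured by passage. Lines join the Rspo1 libraries of a passage and bars are group means (n = 3). For Axin2 the sorted groups overlap and lie above the untreated libraries, whereas for Mki67, Ube2c, Foxm1, Clspn, Brca2, Fos and Fosb every reporter-positive library lies above every reporter-negative one.

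Genes of mitosis had the largest median of the gene lists. Of 75 G2/M and mitosis genes, 67 rose and 1 fell in both fits. The list's median was 1.53 and 1.39 with the offset, against 0.03 and 0.07 over all genes. Within passages 5, 6 and 10 the median difference was 1.51, 1.71 and 1.18. Without passage 5, 38 rose in both fits and 60 in the fit without the offset. In bulk RNA, more cells of a kind and more RNA per cell cannot be told apart.

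Promoters of many mitotic genes share a pair of elements, the CHR bound by the DREAM and MuvB complexes and the CCAAT box bound by NF-Y, which hold these genes low outside the G2 and M phases and raise them within those phases. These elements stand in the promoters of 3 members that rose, Mki67, Ube2c and Ccnb2, shown here from 250 bases before to 50 after the annotated start (RefSeq, GRCm38.p6), 5′ to 3′ along the gene, with CHR matches (TTTGAA or TTTAAA) and CCAAT boxes (CCAAT), on either strand, in capitals.
Mki67, chr7:135716330-135716629, minus strand: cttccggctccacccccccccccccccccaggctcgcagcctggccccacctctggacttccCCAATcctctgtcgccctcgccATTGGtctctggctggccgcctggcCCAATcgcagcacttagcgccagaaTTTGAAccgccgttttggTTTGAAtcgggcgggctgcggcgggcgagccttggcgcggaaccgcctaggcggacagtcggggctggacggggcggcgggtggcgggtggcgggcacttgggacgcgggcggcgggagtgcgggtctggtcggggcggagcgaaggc
Ube2c, chr2:164769679-164769978, plus strand: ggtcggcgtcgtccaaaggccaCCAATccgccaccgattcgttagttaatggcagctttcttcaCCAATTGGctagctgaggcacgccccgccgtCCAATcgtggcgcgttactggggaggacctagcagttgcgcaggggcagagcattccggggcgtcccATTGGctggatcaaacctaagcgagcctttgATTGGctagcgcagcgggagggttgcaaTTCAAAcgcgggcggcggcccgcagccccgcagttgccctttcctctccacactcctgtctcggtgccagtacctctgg
Ccnb2, chr9:70421505-70421804, minus strand: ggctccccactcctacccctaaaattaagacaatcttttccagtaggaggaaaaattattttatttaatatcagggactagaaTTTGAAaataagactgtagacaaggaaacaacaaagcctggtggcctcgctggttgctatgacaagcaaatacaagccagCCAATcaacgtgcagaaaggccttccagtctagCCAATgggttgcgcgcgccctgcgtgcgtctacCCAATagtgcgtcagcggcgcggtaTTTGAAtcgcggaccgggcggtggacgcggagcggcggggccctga
Of the 75 list members, 64 matched an entry in the promoter table by symbol. A CHR match was found in 47 of them (73.4%), against 22.8% of the promoters of genes tested and 30.6% of all promoters. Both elements were found in 38 (59.4%), against 10.7% of the promoters of genes tested and 13.4% of all promoters. The median fold change was 1.63 for the 38 mitotic genes with both elements and 1.43 for the other 26 (1.56 and 1.26 with the offset). Over all genes tested with a promoter entry, the median was 0.13 for the 1210 with both elements and 0.00 for the other 10097. A match is a string of letters and not a measured binding site.

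Mki67, the gene of the proliferation antigen Ki-67 (chr7:135689784-135716361), was at 13, 39.8 and 21.3 CPM in reporter-negative and 147, 279.7 and 232 in reporter-positive cells, and at 9.79, 21.5 and 25 in untreated cells. Each positive library was far above all negative ones, and the fold change was 3.23 ± 0.20 (9.40-fold, adjusted p = 2.8e-05) and 2.52 ± 0.13 with the offset (5.72-fold). Among kinetochore and spindle genes, Cenpe, the kinetochore motor, was at 2.40, 6.67 and 3.13 CPM in negative and 22.8, 51.9 and 33.9 in positive libraries (3.22 ± 0.17, adjusted p = 8.4e-06; 2.39 ± 0.16 with the offset). Cenpf, a kinetochore protein, differed by 3.21 ± 0.17 (2.22 ± 0.13 with the offset), Aspm at the spindle poles by 2.99 ± 0.21 (2.14 ± 0.15), the motors Kif11 by 2.41 ± 0.20 (1.78 ± 0.18) and Kif15 by 2.82 ± 0.20 (2.24 ± 0.20), and Ndc80 by 2.37 ± 0.31 (2.12 ± 0.31). Top2a, which untangles DNA before segregation, was at 22.6, 44.4 and 31.4 CPM in negative and 124, 188 and 141 in positive libraries, with no overlap.

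Regulators of mitotic entry and exit rose as well. Foxm1, the transcription factor that drives many of these genes, was at 7.96, 15 and 15 CPM in negative and 25.4, 51.2 and 32.7 in positive libraries (1.53 ± 0.15, adjusted p = 1.9e-04; 1.66 ± 0.14 with the offset). Ube2c, which charges the anaphase-promoting complex, was at 8.20, 16.3 and 12.8 CPM in negative and 22.2, 57.6 and 29.6 in positive libraries (1.47 ± 0.22; 1.82 ± 0.20 with the offset). Cdc20, which activates that complex, differed by 1.11 ± 0.18 (1.54 ± 0.16), and the kinases Plk1 by 1.23 ± 0.23 (1.62 ± 0.22), Aurkb by 1.35 ± 0.24 (1.67 ± 0.23) and Aurka by 0.75 ± 0.26 (1.02 ± 0.25). The cyclin Ccnb1 differed by 1.31 ± 0.22, and Ccnb2 by 1.10 ± 0.21 with overlapping groups. For Ube2c and these 6 genes passage 6 had the widest within-passage difference, and Aurka lost its call on leaving out any single reporter-positive library. Birc5 (survivin) differed by 1.34 ± 0.17 and Troap, a spindle protein, by 2.09 ± 0.19. The fold change of each of Ube2c, Cdc20, Plk1, Aurkb, Birc5 and Troap, whose transcripts lie above the median GC content of all genes, was larger with the offset than without it.

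The member that fell was Pttg1, the separase inhibitor securin, at 17.4, 12.8 and 17.7 CPM in reporter-negative and 10.05, 9.51 and 9.85 in reporter-positive cells. The groups did not overlap (-0.69 ± 0.15, adjusted p = 0.0051; -0.61 ± 0.13 with the offset), and the call was lost without passage 5 or without passage 10. Cdk1, the mitotic kinase, was called without the offset (0.79 ± 0.22, adjusted p = 0.017) and not with it (0.59 ± 0.23, adjusted p = 0.091); the same held for the checkpoint gene Mad2l1 (1.11 and 0.38). Cks1b (0.48), Stmn1 (0.39) and Ube2s (0.08) were called with the offset alone, and Bub3 (-0.32) and Fzr1 (-0.21) in neither fit. Split at the median GC content of all genes (50.6%), the 51 mitosis genes of low GC content had a median of 1.82 and the 24 of high GC content one of 1.04; with the offset the medians were 1.43 and 1.35.

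Genes of DNA replication had a smaller median than the mitosis list. Of 50 genes, 22 rose and none fell in both fits; without the offset edgeR called 27 higher and 0 lower. The median was 0.43 and 0.60 with the offset. Without passage 5, 3 rose, and without any single library of the 6 between 10 and 13 did. The checkpoint adaptor Clspn was at 3.33, 3.37 and 3.73 CPM in negative and 16.5, 14.3 and 17 in positive libraries, with no overlap (2.20 ± 0.18, adjusted p = 9.2e-05; 2.02 ± 0.17 with the offset). Pola1, the catalytic subunit of DNA polymerase alpha, differed by 2.13 ± 0.26 (1.41 ± 0.24), the origin-firing kinase Cdc7 by 1.70 ± 0.28 (1.48 ± 0.29), and the origin factors Ticrr by 1.60 ± 0.19 (1.35 ± 0.19) and Mcm10 by 1.14 ± 0.20 (1.08 ± 0.20).

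The MCM2-7 helicase, which licenses origins before S phase, showed smaller differences apart from Mcm4. Mcm2 was at 109.8, 69 and 85.2 CPM in reporter-negative and 121, 80.7 and 83.8 in reporter-positive cells, with overlapping groups (0.11 ± 0.18, adjusted p = 0.66), against 42.3, 43.1 and 24.7 in untreated cells. Mcm3 (0.40 ± 0.20), Mcm5 (0.29 ± 0.23) and Mcm7 (0.13 ± 0.14) did not pass either, although Mcm3 passed with the offset (0.61 ± 0.19, adjusted p = 0.046). Mcm4 was at 46.6, 28.5 and 33.6 CPM in negative and 99.7, 69.7 and 73.5 in positive libraries, with no overlap (1.17 ± 0.13, adjusted p = 2.6e-04), and Mcm6 differed by 0.42 ± 0.14, a call that each single-library omission ended. The sliding clamp Pcna differed by 0.19 ± 0.16 (adjusted p = 0.39). The ribonucleotide reductase subunits Rrm1 (0.51) and Rrm2 (0.52) passed only without the offset. The factors E2f1 (0.48 ± 0.14; 0.83 with the offset), E2f2 (0.86 ± 0.21) and the loader Cdc6 (0.80 ± 0.25) rose in both fits and lost their calls without passage 5. E2F sites (TTTCGCGC or TTTGGCGC, either strand) were found in 13 of 41 replication promoters (31.7%), against 1.72% of the promoters of genes tested. The median fold change was 0.42 for these 13 and 0.46 for the other 28.

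Of 38 genes of homologous recombination and the Fanconi pathway, which repair breaks and crosslinks at replication forks, 20 rose and none fell in both fits (24 higher and 2 lower without the offset). The median was 0.94 and 0.69 with the offset. Without passage 5, 4 rose in both fits. Brca2 was at 2.90, 2.88 and 1.99 CPM in reporter-negative and 14.9, 11.9 and 13.6 in reporter-positive cells, with no overlap (2.37 ± 0.20, adjusted p = 9.2e-05; 1.33 ± 0.16 with the offset), and at 4.43, 4.28 and 5.41 in untreated cells. Brca1 differed by 1.75 ± 0.17 (1.24 ± 0.16), the helicase Blm by 1.92 ± 0.20 (1.43 ± 0.19), Rad54b by 2.39 ± 0.24 (2.06 ± 0.23) and Fancd2 by 1.62 ± 0.23 (1.20 ± 0.22). GC content moved with this list: the 28 genes of low GC content had a median of 1.25 (0.86 with the offset) and the 10 of high GC content -0.10 (0.15). The 20 that rose were all of low GC content, and 0 of the 10 of high GC content rose. Over all genes tested, 1324 of 8501 of low and 426 of 8500 of high GC content rose in both fits.

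Of 29 genes of cell cycle exit tested, 5 rose and 1 fell, beside 10.3% and 4.93% of all genes tested. Without passage 5, 0 rose and 0 fell in both fits. The gene that fell was Cdkn1c, the CDK inhibitor p57, at 4.10, 4.28 and 4.66 CPM in reporter-negative and 1.82, 1.75 and 1.57 in reporter-positive cells. All positive libraries were below all negative ones (-1.35 ± 0.27, adjusted p = 0.003; -0.90 ± 0.25 with the offset, adjusted p = 0.03); 30.7% of its exon bases overlap an antisense gene. The inhibitor Cdkn2c (p18) rose by 0.83 ± 0.22 and the pocket protein Rbl1 (p107) by 1.5 ± 0.15 (0.87 with the offset). The G1 kinase Cdk6 rose by 0.95 ± 0.15 (0.49 with the offset). Cdkn1a (p21) was called lower without the offset (-0.45 ± 0.14, adjusted p = 0.027) and not with it (-0.02). Of 29 p53 targets, 2 rose, Mdm2, the ligase that degrades p53 (0.88 ± 0.14), and Pidd1 (0.77 ± 0.22), and none fell. Without the offset 7 were higher and 4 lower, and without passage 5 0 rose in both fits. The p53 list's median was 0.03 and 0.07 with the offset, the same as over all genes, of which 10.3% rose.

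Immediate early genes are transcribed within minutes of a growth signal or of stress, cell dissociation included. Of 40 genes of this response, 11 rose and none fell in both fits; without the offset 13 were higher and 5 lower. The median was 0.18 and 0.46 with the offset. Without passage 5, 4 rose. Fosb, an AP-1 subunit (chr7:19302696-19310051), had the largest offset fold change of all genes chosen for their size. It was at 8.65, 2.67 and 3.22 CPM in reporter-negative and 94.3, 21.2 and 38.8 in reporter-positive cells, against 11.5, 0.803 and 2.99 in untreated cells. Passage 5 was highest in every group, and at each passage the positive library was the higher one (3.38 ± 0.29, adjusted p = 9.2e-05; 3.62 ± 0.29 with the offset). Fos was at 170.4, 55.5 and 82.7 CPM in negative and 582, 201 and 293 in positive libraries, with no overlap and within-passage differences of 1.77, 1.85 and 1.82 (1.82 ± 0.15, adjusted p = 9.2e-05).

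The promoter of Fos is shown because a cyclic AMP response element (CRE, here TGACGT on either strand, in capitals) close to its start is a known site for CREB factors.
Fos, chr12:85473640-85473939, plus strand: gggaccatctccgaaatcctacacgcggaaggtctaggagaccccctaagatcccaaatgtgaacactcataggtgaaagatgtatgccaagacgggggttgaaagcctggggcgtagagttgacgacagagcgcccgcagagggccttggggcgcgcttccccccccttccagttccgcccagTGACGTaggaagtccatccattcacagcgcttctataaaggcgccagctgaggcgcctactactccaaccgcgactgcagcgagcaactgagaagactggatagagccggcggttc
CRE matches were found in 5 of 33 promoters of this list (15.2%) and in 12.7% of the promoters of genes tested, and CArG boxes, the serum response element core, in 3 (9.09%) and 1.62%. The printed Fos window holds no CArG box by the pattern used, and sequence more than 250 bases before the start was not searched.

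Egr1 was at 65.3, 13.2 and 31.4 CPM in negative and 289.9, 63 and 147 in positive libraries (2.22 ± 0.21, adjusted p = 1.7e-04), with overlapping groups: the passage 5 negative library lay just above the passage 6 positive one. Nr4a1 (1.42 ± 0.28), Nr4a2 (1.16 ± 0.21), Jun (0.91 ± 0.18), the mRNA-decay factor Zfp36 (0.93 ± 0.14) and Klf4 (0.54 ± 0.13; 0.82 with the offset) rose as well. Without passage 5, Nr4a1, Nr4a2, Klf4 and Egr2 lost their calls. Egr2 was at 1.01, 0.288 and 0.381 CPM in negative and 8.69, 0.0675 and 3.81 in positive libraries: it was higher in the positive library at passages 5 and 10 and lower at passage 6, and its call (2.56 ± 0.62, adjusted p = 0.0084) was lost in DESeq2. Other members did not pass without the offset, such as Junb (-0.11 ± 0.13), Atf3 (0.26 ± 0.23) and the phosphatase Dusp1 (0.14 ± 0.13), the last of which passed with it (0.52 ± 0.12, adjusted p = 0.014). Among heat-shock genes, the chaperonin Hspd1 (0.84 ± 0.13) and Hsp90aa1 (1.02 ± 0.15; 0.63 with the offset) rose, while Hspa1a was called lower without the offset (-0.76 ± 0.18) and not with it (-0.42 ± 0.17). How long each sorted fraction waited before lysis is not given in the sources used here, and the part of the sort in these values was not tested.

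**Figure D3:**
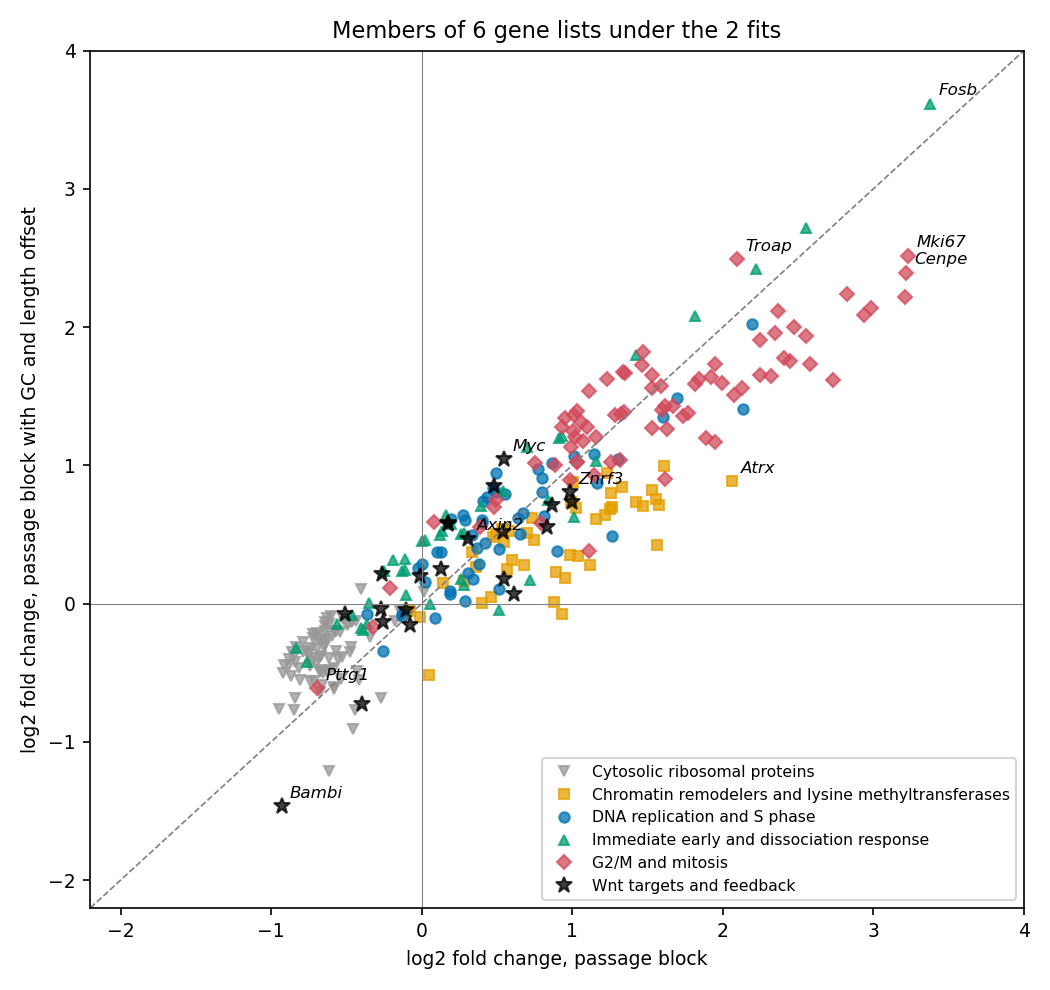
Log2 fold changes of the members of 6 gene lists without (x axis) and with (y axis) the GC and length offset, both with passage as a block; the dashed line marks equal values. Mitosis genes and a few immediate early genes reach the highest values on both axes, most chromatin genes lie below the line and most ribosomal protein genes lie above it, with both values under 0.

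Genes of the duct epithelium checked the tissue label. Epcam, an epithelial adhesion protein, was at 520.4, 621 and 612 CPM in reporter-negative and 533, 626 and 591 in reporter-positive cells (-0.00 ± 0.13, adjusted p = 0.99). The duct factor Sox9 (0.27 ± 0.14) and osteopontin Spp1 (0.22 ± 0.19) did not pass either. Alb, the main hepatocyte secretory gene, was at 9.34, 7.82 and 12.4 CPM in negative and 6.20, 3.91 and 8.76 in positive libraries. It passed only without the offset (adjusted p = 0.048). The 31 hepatocyte genes tested summed to 4668, 6066 and 6209 CPM in negative and 3854, 3769 and 4092 in positive libraries. Of 51 duct and progenitor genes, 7 rose and 4 fell in both fits, beside 10.3% and 4.93% of all genes tested. Without the offset 9 were higher and 19 lower, beside 21.5% and 17.4% of all genes tested. Without passage 5, 0 rose and 1 fell. The chloride channel Cftr rose from 4.36, 6.58 and 3.35 to 12.1, 14.6 and 13.9 CPM (1.53 ± 0.19; 0.73 ± 0.15 with the offset). The transcription factors Onecut1 (0.82 ± 0.22), Onecut2 (1.54 ± 0.24; 0.52 with the offset) and Foxa1 (0.71 ± 0.14) and the cilium channel Pkd2 (1.01 ± 0.19) rose too. Onecut2 was at 84.7, 150.3 and 86 in reporter-negative, 294, 273 and 364 in reporter-positive and 447, 463 and 716 in untreated cells, so the reporter-positive values lay between the other groups.

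The duct genes that fell were the trefoil peptide Tff3, Psca, the water channel Aqp5 and the keratin Krt7. Tff3 was at 147, 99.9 and 48.9 CPM in negative and 59.1, 20.9 and 17.4 in positive libraries (-1.64 ± 0.31, adjusted p = 0.0023; -1.21 ± 0.32 with the offset), lower in the positive library at each passage. Psca differed by -1.43 ± 0.16 (-0.90 with the offset), Aqp5 by -1.11 ± 0.17 (-0.66) and Krt7 by -0.64 ± 0.16. Krt19 (-0.76 ± 0.16) and Krt8 (-0.57 ± 0.17) were called lower only without the offset. Of 66 hepatocyte genes, 31 were tested, of which 1 rose and 5 fell; without passage 5, 1 fell. Ass1, the urea-cycle argininosuccinate synthase, was at 134, 72.9 and 125 CPM in negative and 49.9, 24.7 and 37.9 in positive libraries, with no overlap (-1.57 ± 0.14, adjusted p = 1.0e-04; -1.15 ± 0.12 with the offset). Ambp (-1.11 ± 0.18; -0.66 with the offset), Hgfac (-0.98 ± 0.11; -0.56 with the offset), Ttr (-0.65 ± 0.19) and Cyp3a13 (-0.49 ± 0.15; -0.94 with the offset) fell, and antithrombin, Serpinc1, rose (1.62 ± 0.34); 34.4% of its exon bases overlap an antisense gene.

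**Figure D4:**
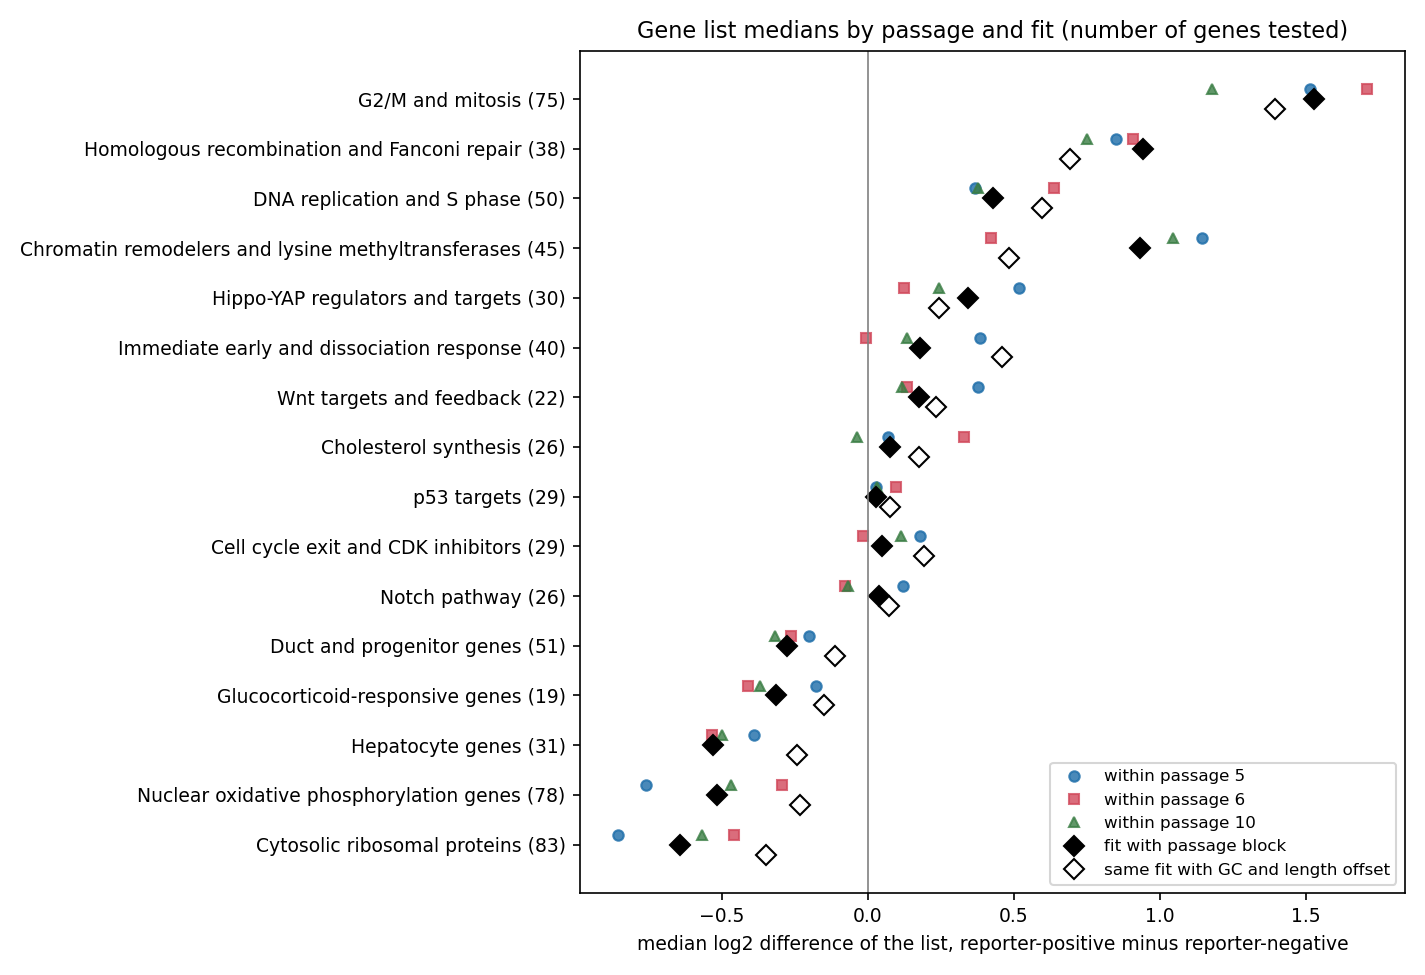
Median log2 difference of 16 gene lists, reporter-positive minus reporter-negative (x axis), with the number of genes tested in parentheses. Coloured points are within-passage medians, filled diamonds the fit with passage as a block and open diamonds the same fit with the GC and length offset. Mitosis genes have the highest medians in all 5 values, and the chromatin, ribosomal protein and oxidative phosphorylation lists move towards 0 with the offset.

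Other signalling lists held smaller groups of changes. Of 30 Hippo-YAP regulators and targets, 7 rose and none fell (14 higher and 0 lower without the offset). Without passage 5, 1 rose in both fits. The list's summed CPM was 2625, 2612 and 2805 in untreated, 1803, 2295 and 2269 in reporter-negative and 2695, 2580 and 2734 in reporter-positive cells. Ankrd1, a YAP target, was at 71.6, 70.7 and 88.4 CPM in negative and 136, 160.3 and 169 in positive libraries, with no overlap (1.02 ± 0.13; 1.04 ± 0.12 with the offset). The kinase Lats1 (1.37 and 0.78 with the offset), its partner Mob1b (1.46 and 0.83), the DNA-binding factor Tead1 (1.40 and 0.68) and Yap1 itself (0.39 and 0.38) rose. The YAP targets Ctgf (-0.40 ± 0.16) and Cyr61 (0.39 ± 0.15) did not pass without the offset, and Cyr61 passed with it (0.71 ± 0.13). Of 26 Notch genes, 3 rose and 2 fell, beside 10.3% and 4.93% of all genes tested. The list's median was 0.04 (0.07 with the offset), against 0.03 and 0.07 over all genes. The ligand Jag1 (0.75 ± 0.13), the coactivator Maml2 (1.05 ± 0.19, 0.61 with the offset) and the protease Adam10 (0.94 ± 0.13, 0.33 with the offset) rose. The receptor Notch3 (-0.53 ± 0.13) and Hes6 (-0.90 ± 0.13, -0.41 with the offset) fell. Without passage 5 none of these 5 was called in both fits.

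Of 19 glucocorticoid-responsive genes, which bear on the dexamethasone that all groups received, 4 fell and 1 rose. Tsc22d3, which encodes the glucocorticoid-induced leucine zipper, was at 217, 214 and 194 CPM in reporter-negative and 149, 106 and 116 in reporter-positive cells. The groups did not overlap (-0.77 ± 0.15, adjusted p = 0.0027; -0.73 ± 0.14 with the offset). Klf15 (-0.95 ± 0.18; -0.59 with the offset), Cebpd (-0.72 ± 0.15) and the kinase Sgk1 (-0.48 ± 0.16) fell, and Klf9 rose (0.70 ± 0.15). Without passage 5 none of the 5 was called in both fits, although Tsc22d3 and Klf15 stayed past the threshold without the offset. Of 26 cholesterol synthesis genes, 4 rose and none fell, beside 10.3% and 4.93% of all genes tested. The 4 included the synthase Hmgcs1, at 108, 89 and 169.7 CPM in negative and 281, 279.7 and 490.2 in positive libraries (1.53 ± 0.20; 1.13 ± 0.20 with the offset), the isomerase Idi1 (1.33 ± 0.21; 0.85 with the offset) and the cyclase Lss (0.61 ± 0.16). Without passage 5, 0 of them rose in both fits, and 0 without the passage block.

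Some lists whose transcripts are unusual in length or GC content had medians that moved towards 0 with the offset. Chromatin remodelers and lysine methyltransferases have long transcripts (median 8175 bases, against 2497 over all genes). Of 45 of them, 38 were higher and 0 lower without the offset and 25 rose in both fits. The median fell from 0.93 to 0.48. The list's summed CPM was 4088, 3629 and 4731 in untreated, 2236, 3331 and 2566 in reporter-negative and 4552, 4333 and 4455 in reporter-positive cells. The Polycomb subunits Suz12 (1.61 and 0.99 with the offset) and Ezh2 (1.23 and 0.94), the remodeler Atrx (2.06 and 0.89) and the methyltransferase Kmt2a (1.33 and 0.85) rose, and Chd9 went from 0.88 to 0.01. Without passage 5, 1 of the list rose in both fits. Cytosolic ribosomal proteins have short transcripts (median 795 bases). Of 83, 75 were lower without the offset and 28 fell in both fits, with medians of -0.64 and -0.35. Their summed CPM was 31308, 35292 and 27901 in untreated, 55517, 40005 and 50491 in reporter-negative and 30454, 28630 and 33213 in reporter-positive cells. Rps3 (-0.85 and -0.77) and Rpl13a (-0.88 and -0.45) fell, and Rplp0 passed only without the offset (-0.75 and -0.36). Without passage 5, 1 ribosomal protein gene was called lower without the offset and 0 in both fits. Among nuclear genes of oxidative phosphorylation, 48 of 78 were lower without the offset and 12 fell in both fits. The 12 included Ndufv2 (-0.49 and -0.83) and Uqcrh (-0.77 and -0.55). This list's summed CPM was 8120, 9357 and 7630 in untreated, 12569, 9695 and 11788 in reporter-negative and 7855, 7831 and 8667 in reporter-positive cells. Without passage 5 none was called lower without the offset. The 8 mitochondrially encoded genes tested, of low GC content (median 36.4%), had a median of 0.68 and, with the offset, 0.06, and none was called in both fits. Of 26 nuclear-retained and host noncoding RNAs, Snhg5 (1.09) rose and Kcnq1ot1 and Snhg18 (-0.76) fell. The median of this list was 0.28 and 0.30 with the offset, so it did not move towards 0. Of 20 replication-dependent histone genes 2 rose and 2 fell. Over all genes tested, 10.3% rose and 4.93% fell. Without passage 5, 1 noncoding RNA rose and 0 fell, and no histone gene did either.

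The 12 genes with the largest rises by the offset fit, among 1412 that rose in both fits at all 3 passages with a mean of more than 2 log2 CPM, included Fosb, Egr1 and the mitosis genes Mki67, Troap, Cenpe, Kif15 and Cenpf described above. The others were Ankle1, a nuclease that acts on DNA bridges (2.51 ± 0.28; 2.91 ± 0.27 with the offset), the helicase Pif1 (2.03 ± 0.30; 2.29 ± 0.28), the repressor Zbtb20, the lincRNA AU020206 (1.73 ± 0.18; 2.15 ± 0.17) and AC113003.1, which lies antisense to Kif5b (1.74 ± 0.22; 2.21 ± 0.23). Zbtb20 was at 18, 42.9 and 15.4 CPM in reporter-negative, 107, 93.6 and 92.4 in reporter-positive and 53, 53.6 and 74.1 in untreated cells, with no overlap between the sorted groups (2.02 ± 0.30, adjusted p = 7.9e-04).

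Among the 12 largest falls, of 750, were Clca1, a secreted goblet-cell protein, and Gp2, a membrane glycoprotein of secretory cells. Clca1 was at 17.5, 18.2 and 4.32 CPM in negative and 10.3, 3.20 and 0.979 in positive libraries (-1.65 ± 0.31; -1.88 ± 0.30 with the offset), and Gp2 at 39.4, 54.1 and 8.85 CPM in negative and 8.74, 10.9 and 4.45 in positive libraries (-1.85 ± 0.26; -1.76 ± 0.25). Both were lower in the positive library at each passage, with groups that overlap. Bnip3, a mitophagy receptor, was at 74.5, 35.2 and 80.2 CPM in negative and 36.8, 12.9 and 28.2 in positive libraries (-1.32 ± 0.14; -1.70 ± 0.16 with the offset). Gm45507, also among the 12, lies antisense to Bnip3, and 97.1% of its exon sequence overlaps that gene. AA467197 (-1.45 ± 0.17), Gm15396 (-1.5 ± 0.21), Gm45236 (-1.31 ± 0.17), Lrp2bp (-1.18 ± 0.19) and the mitochondrial ribosomal gene Mrpl17 (-0.67 ± 0.13; -1.46 with the offset) fell as well. Gm45236 lies wholly over Gde1 exons on the other strand and Gm26377 (-0.68 ± 0.21) wholly over Eef1a1 exons, so their counts cannot be told apart from those genes' reads. Mir703 (-0.65 without and -1.72 with the offset) and the long antisense RNA Kcnq1ot1 (-0.38 and -1.59) moved by more than 1 log2 unit with the offset, at annotated lengths of 109 and 93092 bases; Gm26377 did too (-1.76 with it).

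Markers of other cells gave little signal. Of the immune markers listed in the files, 5 of 8 were under 1 CPM in all 6 Rspo1 libraries, as were 9 of 10 fibroblast or stellate and 7 of 8 endothelial markers; the exceptions were Csf1r, Cd68, Itgam, Vim and Eng. The pan-leukocyte gene Ptprc was at 0.13 CPM or less, and Pecam1, an endothelial adhesion gene, at 0.13 or less. Summed immune marker levels were 59.9 to 72.2 CPM in reporter-negative and 53.8 to 68.5 in reporter-positive cells, with Csf1r, Cd68 and Itgam above 1 CPM. Tuft and neuroendocrine markers summed to 51.0 to 99.4 and 78.2 to 85.4 CPM, mostly from Dclk1, and no marker of these 4 lists was called in both fits. Fibroblast or stellate markers summed to 0.72 to 1.98 CPM in reporter-negative and 0.79 to 1.42 in reporter-positive cells, and endothelial markers to 2.74 to 4.02 and 2.76 to 3.25.

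The authors' deposited table for this comparison lists 15807 genes and calls 6964 at an adjusted p under 0.05, of which 3574 were higher and 3390 lower in reporter-positive cells. Of the genes shared with the present fit, 6115 were called in the same direction in both and 0 in opposite directions. The deposited table makes no GC or length correction that the sources used here record.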

How the data were processed

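RNA-seq of sorted organoid cells was analysed from 9 libraries, 6 of them in the comparison. Per the submitters' processing notes, reads were handled with Trimmomatic 0.35, FastQC 0.11.2, STAR 2.5.1b, featureCounts and DESeq2 on GRCm38; the annotation release and the strand setting of counting are not given in the sources used here, so overlapping and antisense genes are uncertain. The deposited raw counts per gene were tested. The deposited FPKM values were not tested. In the authors' comparison table, the mean normalized count is a signal, beside the authors' log2 fold change, test statistic (a score) and p-value; only its calls were used.

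Counts were fitted with edgeR 4.0.16 (R 4.3.3; filterByExpr, TMM, quasi-likelihood F-test) over all 9 libraries, which share 1 estimate of the spread, with group and passage as terms. Adjusted p-values are Benjamini-Hochberg over 17011 genes, with a threshold of 0.05. Standard errors were computed from the fold change and the F statistic. A second fit added an offset for each library from a robust regression (MASS 7.3.60.0.1) of its deviations on splines with 5 degrees of freedom of GC content and log2 length, taken from GENCODE M21 transcripts. Both fits were run on counts simulated without a GC or length trend, so the removal of such a trend was not tested there. At the threshold of 0.05, false calls made up 6.80% of calls without the offset and 6.76% with it. The replicate numbers mark passages 5, 6 and 10, per the labels; deviations of the 9 same-passage pairs correlated at 0.123 to 0.573, and those of the 18 other pairs at -0.476 to 0.0826. No pair of replicates was a repeat within sampling noise.

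The members and lists were chosen with earlier results of these data known. Named genes were Axin2, members of the lists, and the 12 largest rises and 12 largest falls by the offset fit among genes called in the same direction in both fits, with a mean above 2 log2 CPM and the same sign at all 3 passages. Alternatives were the fits without block or offset, the 6 libraries alone, RLE and upper-quartile scaling, no filter, DESeq2 1.42.0, and leaving out each library and passage. Total counts ran from 23423979 to 37351448, and the spread between replicates exceeded counting error (chi-square per gene 54.4 to 518). Promoters came from RefSeq (GRCm38.p6).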

Additional observations from a re-analysis of the deposited data

How the results depend on the processing

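Of 170 genes followed across settings, 145 were called; no called gene changed direction under any of the 17 alternatives, and the calls lost numbered 0 with the 6 libraries alone and with RLE factors, 1 with DESeq2 and with no filter, 2 with upper-quartile scaling, 15 with the offset, 47 without the replicate block and 84 with the offset and no block. Calls gained numbered 8 with the 6 libraries alone, 7 with the offset, 7 without passage 6, 4 with no filter and 0 to 2 under each other alternative; Axin2 and Lgr5 gained calls without passage 6. The 3660 genes higher and 2964 lower became 2395 and 1359 with the offset, 2477 and 1664 without the block, and 919 and 403 with the offset and no block. Leaving out single libraries or passages gave 1385 to 4230 higher and 434 to 3776 lower, and the share of calls that were higher was 76.1% without passage 5, against 55.3%; with the offset it was 63.8%, with RLE factors 51.6% and with upper-quartile scaling 49.0%. Genes called in both fits (2592) numbered 945 without the block, 4234 with the 6 libraries alone, 4166 with no filter and 150 to 3849 in the leave-one-out fits. Without the pairing, the replication genes called higher went from 27 to 16 (17 with the offset), immediate early genes from 13 to 6 (5), and with the offset and no block Wnt genes went from 7 to 2 and mitosis genes from 69 to 34. Leave-one-out counts were 1 to 9 for Wnt, 8 to 23 for replication, 8 to 17 for immediate early and 60 to 69 for mitosis genes. The replication median was 0.60 with the offset, and the immediate early median 0.46, or 0.42 with no block. Uncalled genes that changed sign with the offset were Rnf43 (0.20, and 0.20 with no block), Ascl2 (0.21 and 0.23), Fzr1 (0.11 and 0.11), Junb (0.33 and 0.34) and Epcam (0.31 and 0.31; 0.0030 with the 6 libraries alone). On leaving out a library or passage, uncalled genes crossed 0 with ranges of -0.14 to 0.11 for Rnf43, -0.061 to 0.025 for Epcam, -0.17 to 0.62 for Atf3, -0.075 to 0.17 for Ube2s, -0.016 to 0.35 for Sp5, -0.081 to 0.23 for Mcm2, -0.0039 to 0.43 for Mcm5, -0.032 to 0.21 for Mcm7, -0.0064 to 0.29 for Pcna and -0.036 to 0.23 for Dusp1. The cause of these changes was not tested.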

Other observations

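The lists of glycolysis and hypoxia genes were chosen after values had been seen, so their counts are descriptions. Of 24 glycolysis and transport genes tested, 12 fell and 0 rose in both fits, with a median of -0.82 (-0.55 with the offset); without passage 5, 1 fell in both fits and 10 without the offset. With the offset and no passage block, 3 were called lower. Slc16a3, which exports lactate, was at 272, 149 and 153 CPM in reporter-negative and 106, 51 and 59.4 in reporter-positive cells, with no overlap (-1.43 ± 0.12, adjusted p = 9.2e-05; -1.03 ± 0.11 with the offset). Pgk1 (-1.11 ± 0.14), Tpi1 (-1.11 ± 0.14; -0.73 with the offset), Ldha, which makes lactate (-0.96 ± 0.16), and the glucose transporter Slc2a1 (-0.85 ± 0.13) fell. Gapdh was lower only without the offset (-0.83 and -0.35), and Hk2 did not pass (0.21 ± 0.17).

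Of 33 genes known to respond to low oxygen, 15 fell and 2 rose in both fits, with a median of -0.52 (-0.45 with the offset). Without passage 5, 6 fell. Ndrg1 was at 496, 397 and 404 CPM in negative and 263, 122 and 129 in positive libraries, with no overlap (-1.43 ± 0.17; -1.23 ± 0.15 with the offset). The carbonic anhydrase Car9 was at 194, 161 and 112 CPM in negative and 113, 67.6 and 41.3 in positive libraries, lower in the positive library at each passage although the groups overlapped (-1.16 ± 0.15; -0.80 ± 0.13 with the offset). Ak4 (-1.32 ± 0.18) fell, while Wsb1 (1.04 ± 0.22) and Epas1 (0.48 ± 0.16) rose, and Vegfa did not pass (0.06 ± 0.28). Hif1a was higher only without the offset (0.87 and 0.20).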
